A study of Mus musculus with 6 samples.

Results

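Eosinophils are granulocytes of the bone marrow, blood and tissues, and 8 mouse genes that are widely used to recognise them are described here out of 28987 genes measured. The 8 genes were chosen by name. They are the granule protein genes Epx, Prg2 and Prg3, the ribonuclease genes Ear1, Ear2 and Ear6, and the receptor genes Il5ra and Ccr3. No eosinophils were sorted in the study, so the values give the level of eosinophil transcripts within other sorted marrow populations. All 8 were found in the table, and 7 of them reached 1 TPM (a share of all transcripts, corrected for transcript length) in at least 1 of the 6 libraries.

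The 6 libraries were made from bone marrow of C57BL/6 mice in which mutations of CBL and RUNX1 model myelodysplastic syndrome, and every group carried these mutations, so there was no library of unmutated cells. Mutant Ly6G+ myeloid cells, mostly maturing neutrophils, gave 2 libraries from mice given Mdivi-1 and 2 from mice given vehicle. Hematopoietic stem and progenitor cells (HSCPs), enriched with beads against CD117 before the mutant clone was sorted, gave 1 library from Mdivi-1 and 1 from vehicle. Mdivi-1 was introduced as a chemical inhibitor of Drp1, the GTPase that divides mitochondria. The sources used here do not give dose, duration, age or how the mutations were introduced. The labels speak of individual mice but name none for a library, and p-values therefore measure only the spread between libraries, which may be technical. Kit, which encodes CD117, had 8.73 to 14.1 TPM in the 4 Ly6G+ libraries, against 64.9 and 72.2 TPM in the HSCP libraries. Ly6g had 642 to 840 TPM in the Ly6G+ libraries, against 90.1 and 187 TPM in HSCP Mdivi-1 and HSCP vehicle, so the HSCP libraries were not free of Ly6g transcripts.

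Eosinophils develop in the marrow from progenitors that acquire the interleukin-5 receptor, and their granule proteins are made early, while the cells are still immature. Epx encodes eosinophil peroxidase, Prg2 encodes major basic protein, and Prg3 encodes a second major basic protein. The Ear genes encode eosinophil-associated ribonucleases, a rodent family that has expanded by gene duplication. Il5ra encodes the specific chain of the interleukin-5 receptor, which supports eosinophil growth, and Ccr3 encodes the receptor for eotaxin chemokines, which draw eosinophils into tissues. Some of these genes are not exclusive to eosinophils in the mouse: Ear2 is also expressed by monocytes and macrophages, Ccr3 by basophils and Il5ra by some B cells.

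The Ear genes are shown by sequence because their similarity limits how far their levels can be separated. On mm10, Ear1 lies on chromosome 14 at 43818765 to 43875517 on the minus strand, Ear2 at 44102654 to 44103534 on the plus strand, and Ear6 at 51853699 to 51854643 on the plus strand. The first 90 coding bases of the 3 genes, read from GENCODE M21 on that assembly, are given below from the start codon, with capitals at the 11 positions where the 3 genes are not all alike.
Ear1: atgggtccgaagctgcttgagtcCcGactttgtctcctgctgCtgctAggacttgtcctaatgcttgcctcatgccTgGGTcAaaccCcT
Ear2: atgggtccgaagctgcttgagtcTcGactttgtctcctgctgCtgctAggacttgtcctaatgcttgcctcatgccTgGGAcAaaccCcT
Ear6: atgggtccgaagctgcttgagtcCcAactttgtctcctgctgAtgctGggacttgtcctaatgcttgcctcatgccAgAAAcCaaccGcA

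Over this stretch Ear1 differed from Ear2 at 2 positions and Ear6 differed from Ear2 at 10. Over the whole coding sequence, Ear1 and Ear2 were 95.1% identical, Ear1 and Ear6 87.3%, and Ear2 and Ear6 87.6%. Of the 31-base words in its transcripts, Ear1 had 26.4% that occur in no other gene and Ear2 had 39.5%, against 91.5% for Ear6. Words shared with Ear2 made up 40.6% of Ear1, and words shared with the pseudogene Ear-ps9 made up 48.6%. All 9 Ear pseudogenes in the table were listed at 0 in every library. The division of reads between Ear1 and Ear2 is therefore uncertain, and the sum of Ear1, Ear2 and Ear6 is given beside the single genes. Epx, Prg2 and Prg3 each had 100% of their 31-base words to themselves, Ccr3 had 99.5% and Il5ra 95.7%.

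The granule protein genes were lower in Ly6G+ cells than in HSCPs by roughly an order of magnitude. Epx lies on chromosome 11 at 87864000 to 87875536 on the minus strand. Its level was 2.91 and 3.08 TPM in Ly6G+ Mdivi-1, 4.55 and 3.38 TPM in Ly6G+ vehicle, 26.1 TPM in HSCP Mdivi-1 and 49.6 TPM in HSCP vehicle. Both HSCP libraries lay above all 4 Ly6G+ libraries, and the HSCP vehicle library was the highest. Among all genes tested between the populations, 52.5% had every Ly6G+ library below both HSCP libraries and 23.5% had every one above. Epx averaged 3.48 ± 0.738 TPM in Ly6G+ cells (SD, n = 4) and 37.8 ± 16.6 TPM in HSCPs (SD, n = 2), and the mean in HSCPs was 10.9 times that in Ly6G+ cells. The limma fit over all 6 libraries, with treatment as a covariate, gave a log2 difference of -3.06 (SE 0.169, 95% interval -3.47 to -2.65, adjusted p = 1.95e-05).

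Prg2 was the most abundant member in every library. It lies on chromosome 2 at 84980461 to 84983632 on the plus strand, just before Prg3 at 84988215 to 84993886 on the same strand. Prg2 stood at 52.3 and 52.5 TPM in Ly6G+ Mdivi-1, 54.1 and 61.5 TPM in Ly6G+ vehicle, 331 TPM in HSCP Mdivi-1 and 595 TPM in HSCP vehicle. The 4 Ly6G+ libraries lay close together, well below both HSCP libraries. Their mean was 55.1 ± 4.35 TPM (SD, n = 4), against 463 ± 186 TPM in HSCPs (SD, n = 2), 8.40 times as high in HSCPs. The log2 difference between Ly6G+ cells and HSCPs by limma was -2.99 (SE 0.156, 95% interval -3.37 to -2.61, adjusted p = 1.75e-05).

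Prg3 followed the same order at a lower level. It had 2.77 and 2.36 TPM in Ly6G+ Mdivi-1, 1.90 and 1.95 TPM in Ly6G+ vehicle, 14.0 TPM in HSCP Mdivi-1 and 21.3 TPM in HSCP vehicle. The groups of the 2 populations did not overlap, and here, unlike for Epx and Prg2, both Ly6G+ Mdivi-1 libraries lay above both Ly6G+ vehicle libraries. Prg3 averaged 2.24 ± 0.404 TPM in Ly6G+ cells (SD, n = 4) and 17.7 ± 5.13 TPM in HSCPs (SD, n = 2), with a log2 difference of -2.51 by limma (SE 0.201, adjusted p = 7.01e-05).

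**Figure D1:**
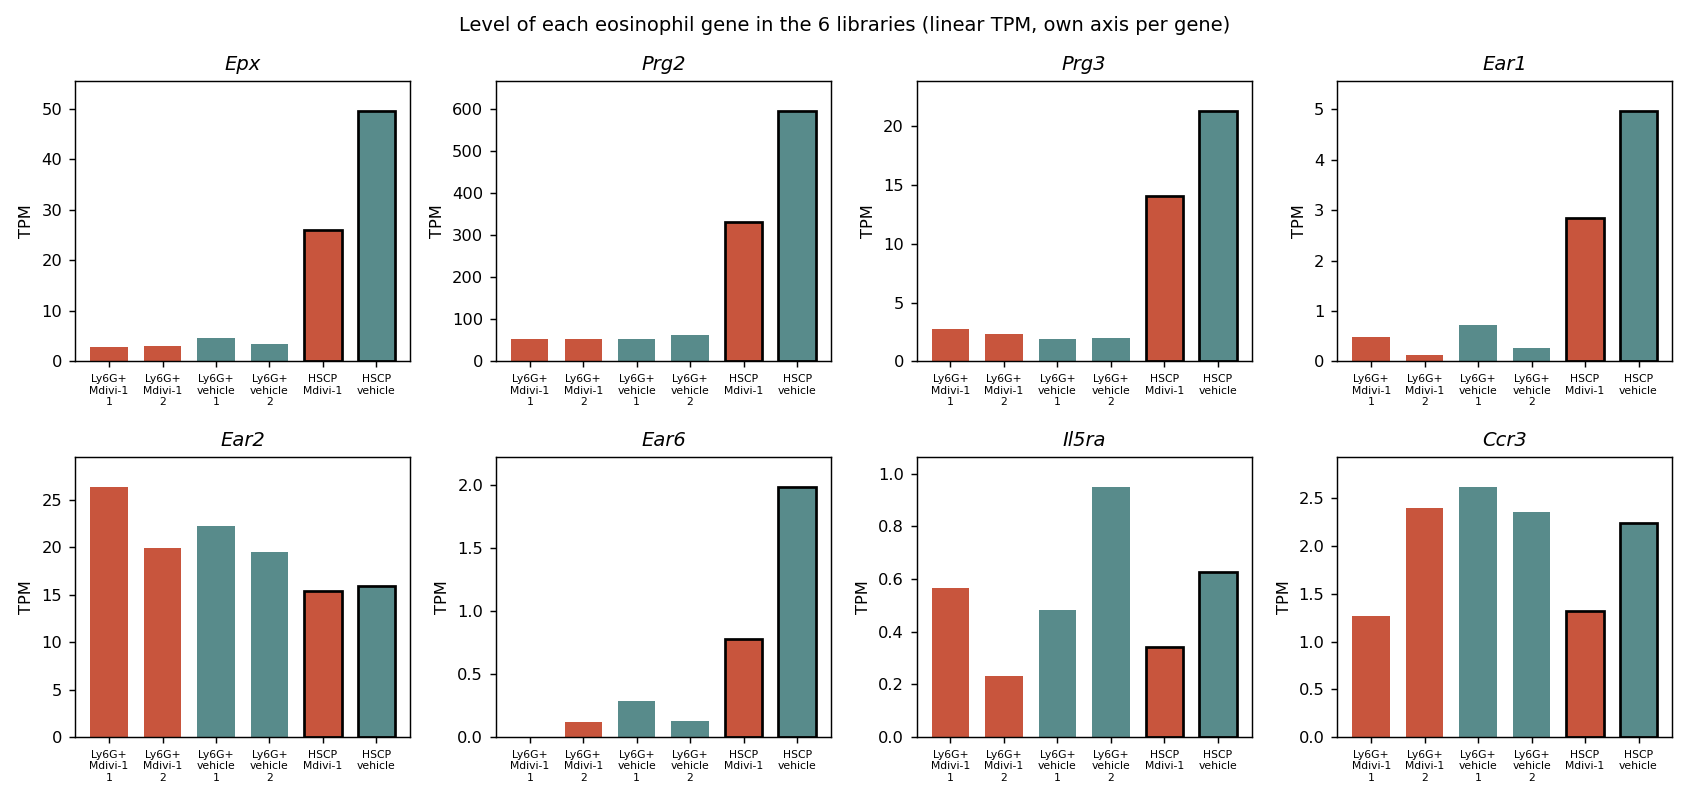
Level of each of the 8 genes in TPM (vertical axis, own scale for each gene) in the 6 libraries, 1 bar per library. Red bars are Mdivi-1, teal bars are vehicle, and outlined bars are HSCPs. Epx, Prg2, Prg3, Ear1 and Ear6 were highest in the HSCP vehicle library, while Ear2 was lowest in the HSCP libraries at 15.4 and 15.9 TPM.

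Within a library, the proportions of the 3 granule protein genes varied far less than their levels. The ratio of Prg2 to Epx was 17.9 and 17.1 in Ly6G+ Mdivi-1, 11.9 and 18.2 in Ly6G+ vehicle, 12.7 in HSCP Mdivi-1 and 11.99 in HSCP vehicle. The ratio of Prg2 to Prg3 was 18.9 and 22.2 in Ly6G+ Mdivi-1, 28.5 and 31.5 in Ly6G+ vehicle, 23.6 in HSCP Mdivi-1 and 27.9 in HSCP vehicle. Both ratios in the HSCP libraries lay within the range of the Ly6G+ libraries. Prg2 alone supplied 60.3% to 68.3% of the summed TPM of the 8 genes in the Ly6G+ libraries, against 84.5% and 86.0% in HSCP Mdivi-1 and HSCP vehicle. That sum over the 8 genes was 80.8 to 90.0 TPM in the Ly6G+ libraries, against 392 TPM in HSCP Mdivi-1 and 691 TPM in HSCP vehicle. In such bulk libraries, fewer cells of a type and less RNA per cell cannot be told apart.

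The ribonuclease genes did not share 1 pattern. Ear2 had 26.3 and 19.9 TPM in Ly6G+ Mdivi-1, 22.3 and 19.5 TPM in Ly6G+ vehicle, 15.4 TPM in HSCP Mdivi-1 and 15.9 TPM in HSCP vehicle. All 4 Ly6G+ libraries lay above both HSCP libraries, the opposite order to the granule protein genes, and the means were 22.0 ± 3.13 TPM in Ly6G+ cells (SD, n = 4) and 15.7 ± 0.357 TPM in HSCPs (SD, n = 2). Ear2 was higher in Ly6G+ cells by 0.46 on the log2 scale (limma, SE 0.128, 95% interval 0.15 to 0.76, adjusted p = 0.0171). Without the HSCP Mdivi-1 library the log2 difference was 0.37 and no longer passed the test (limma, adjusted p = 0.142).

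Ear1 had the order of the granule genes at a low level. It stood at 0.485 and 0.117 TPM in Ly6G+ Mdivi-1, 0.722 and 0.258 TPM in Ly6G+ vehicle, 2.84 TPM in HSCP Mdivi-1 and 4.96 TPM in HSCP vehicle. Every Ly6G+ library was below 1 TPM and both HSCP libraries were above it. Ear1 met the level needed for testing, 1 TPM in 2 or more libraries of the comparison, only through the HSCP libraries, where it was high, so a difference followed from that requirement. With the requirement dropped for all genes, its log2 difference between Ly6G+ cells and HSCPs was -1.80 (limma, adjusted p = 0.00162). Because 1 was added to each TPM before logs were taken, changes of such low genes are understated, and with 0.1 added instead the difference was -3.13.

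Ear6 was scarce in all groups. It was listed at 0 in the first Ly6G+ Mdivi-1 library and had 0.117 TPM in the second, with 0.289 and 0.129 TPM in Ly6G+ vehicle, 0.774 TPM in HSCP Mdivi-1 and 1.99 TPM in HSCP vehicle. The HSCP libraries were the higher ones here too, but Ear6 was below the level needed for testing, as defined for Ear1. With that requirement dropped, its log2 difference was -1.03 (limma, adjusted p = 0.00507).

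The summed level of Ear1, Ear2 and Ear6 was 26.8 and 20.2 TPM in Ly6G+ Mdivi-1, 23.3 and 19.9 TPM in Ly6G+ vehicle, 19.0 TPM in HSCP Mdivi-1 and 22.9 TPM in HSCP vehicle. The populations overlapped, and the sum did not pass the test between them (limma log2 difference 0.10, SE 0.146, 95% interval -0.26 to 0.45, adjusted p = 0.573). After the libraries were rescaled by the median of gene ratios, the sum was higher in Ly6G+ cells by 0.44 on the log2 scale (limma, adjusted p = 0.0427). In its makeup, Ear2 held 95.7% to 98.8% of the sum in the Ly6G+ libraries, against 81.0% in HSCP Mdivi-1 and 69.6% in HSCP vehicle. Ear1 held 0.578% to 3.10% in the Ly6G+ libraries, against 14.9% and 21.7% in HSCP Mdivi-1 and HSCP vehicle. Of the other ribonuclease genes of the family, Ear10 and Ear14 were listed at 0 in every library. Rnase2a had 0.128 to 0.305 TPM and Rnase2b 0.107 to 0.665 TPM in the Ly6G+ libraries, and both were listed at 0 in the HSCP libraries. Ear10 was 97.0% identical to Ear2 over the coding sequence, so its reads could also be shared with Ear2.

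**Figure D2:**
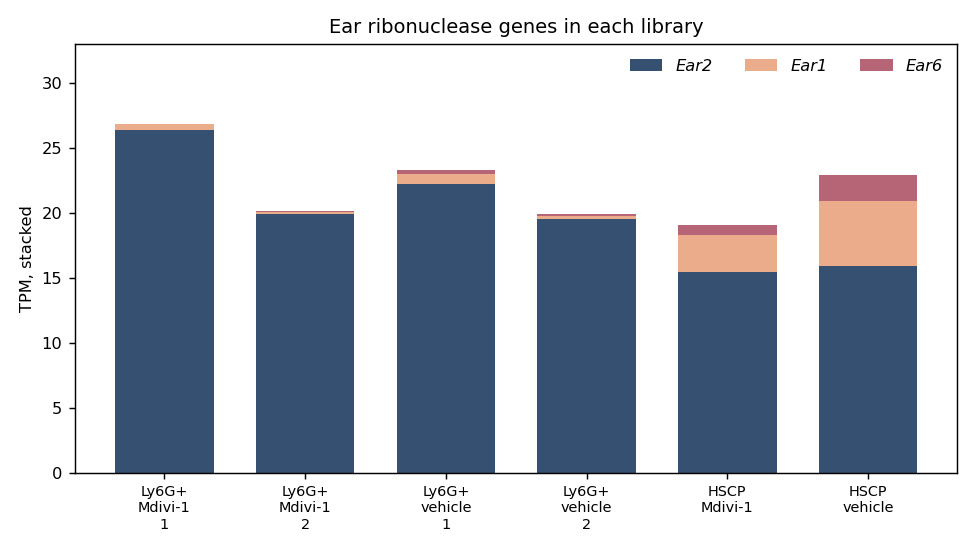
Summed TPM of Ear1, Ear2 and Ear6 (vertical axis) in each of the 6 libraries, stacked by gene. The sums lay between 19.0 and 26.8 TPM, and the Ear1 and Ear6 portions were visible mainly in the HSCP libraries.

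Stretches of 120 bases before the RefSeq start of the 3 ribonuclease genes are shown. The listed levels of Ear1 and Ear2 differed in their order across populations while their promoters were nearly alike. Since the division of reads between Ear1 and Ear2 is uncertain, that difference in order is uncertain too. The sequences are from RefSeq on GRCm38.p6, written along the strand of the gene, with capitals marking a match to TTGCNNAA, a form of the sequence bound by C/EBP factors. The Ear1 stretch is chr14:43819640-43819759 on the minus strand, the Ear2 stretch is chr14:44102534-44102653 on the plus strand, and the Ear6 stretch is chr14:51853648-51853767 on the plus strand. The RefSeq starts of Ear1 and Ear6 lie downstream of the outermost GENCODE M21 starts given above, so the Ear1 stretch lies within the longer GENCODE gene and the Ear6 stretch overlaps its first bases.
Ear1: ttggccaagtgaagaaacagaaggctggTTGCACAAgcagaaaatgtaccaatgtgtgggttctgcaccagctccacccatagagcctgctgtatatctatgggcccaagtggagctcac
Ear2: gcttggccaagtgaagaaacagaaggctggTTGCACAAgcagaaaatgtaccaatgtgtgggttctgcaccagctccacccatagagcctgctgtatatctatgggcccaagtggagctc
Ear6: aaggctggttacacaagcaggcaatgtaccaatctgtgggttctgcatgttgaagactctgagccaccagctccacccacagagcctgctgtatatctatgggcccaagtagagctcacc

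Over the 250 bases before the RefSeq start, Ear1 and Ear2 were identical at 246 of 248 paired bases (99.2%), Ear1 and Ear6 were 92.6% identical and Ear2 and Ear6 were 93.0% identical. Promoters were found for 7 of the 8 genes, all but Prg2, which was therefore not searched. In these 7, searched on both strands, TTGCNNAA was present in 2 (Ear1 and Ear2), and it was present in 9.56% of 32851 mouse promoters of the same length. Both matches read TTGCACAA, 92 to 85 bases before the start of Ear1 and 90 to 83 before that of Ear2. In such nearly identical promoters they are not separate occurrences, so 2 of 7 cannot be read against the share of all promoters. GATAAG, a form of the sequence bound by GATA factors, was present in 0 of the 7 and in 6.55% of all promoters. GAGGAA, a form of the sequence bound by PU.1, was present in 1 (Ccr3) and in 23.3% of all promoters. No match overlapped a match to another of the 3 motifs, and a match describes letters only.

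The receptor genes were low in both populations. Il5ra lies on chromosome 6 at 106710357 to 106749037 on the minus strand. It had 0.565 and 0.233 TPM in Ly6G+ Mdivi-1, 0.482 and 0.950 TPM in Ly6G+ vehicle, 0.343 TPM in HSCP Mdivi-1 and 0.626 TPM in HSCP vehicle. It was the only member below 1 TPM in all 6 libraries, both HSCP libraries lay within the range of the Ly6G+ libraries, and it was too low to be tested. Ccr3 lies on chromosome 9 at 124021972 to 124031689 on the plus strand. It had 1.27 and 2.40 TPM in Ly6G+ Mdivi-1, 2.62 and 2.36 TPM in Ly6G+ vehicle, 1.32 TPM in HSCP Mdivi-1 and 2.24 TPM in HSCP vehicle. The HSCP libraries again lay within the Ly6G+ range, and the log2 difference of 0.18 did not pass the test (limma, SE 0.196, 95% interval -0.29 to 0.65, adjusted p = 0.434).

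Between populations, 6 of the 8 genes were therefore tested, of which 4 were lower in Ly6G+ cells (Epx, Prg2, Prg3 and Ear1), 1 was higher (Ear2) and 1 did not pass (Ccr3). The call of Ear1 carries no weight in this count, since Ear1 was testable only through the group where it was high. Among all 12338 genes tested in this comparison, 50.3% were lower in Ly6G+ cells and 22.2% were higher, 72.4% in either direction, so a call was common. The median log2 difference over all genes was -0.35, and the log2 differences of Epx, Prg2 and Prg3 were between -3.06 and -2.51. When the libraries were rescaled by the median of gene ratios, the median of all genes was -0.02, and the values were -2.73 for Epx, -2.63 for Prg2, -2.19 for Prg3, -1.58 for Ear1 and 0.80 for Ear2.

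**Figure D3:**
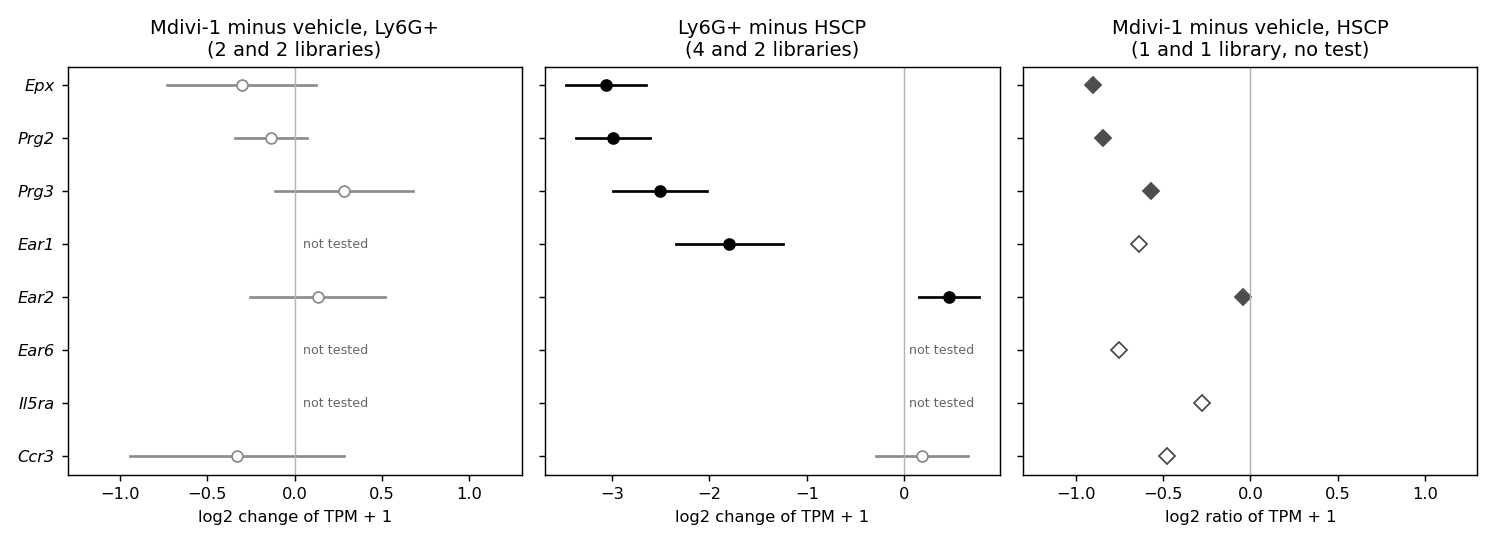
Differences of the 8 genes in log2(TPM + 1) in 3 comparisons: Mdivi-1 against vehicle in Ly6G+ cells (left), Ly6G+ against HSCP (middle), and Mdivi-1 against vehicle in HSCPs (right). Bars are 95% intervals from limma, filled black points passed the adjusted threshold of 0.05 and open grey points did not. Diamonds are ratios of 1 library to 1 library without a test, filled where the mean was at least 5 TPM, and genes below the level needed for testing are marked as not tested.

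Mdivi-1 treatment gave no called change of these genes in Ly6G+ cells. Epx averaged 2.99 ± 0.116 TPM under Mdivi-1 and 3.96 ± 0.826 TPM under vehicle (SD, n = 2 each), a log2 difference of -0.30 (limma, SE 0.166, 95% interval -0.73 to 0.12, adjusted p = 0.320). Prg2 averaged 52.4 ± 0.207 TPM under Mdivi-1 and 57.8 ± 5.24 TPM under vehicle, a log2 difference of -0.14 (limma, 95% interval -0.34 to 0.07, adjusted p = 0.356). For both genes the Mdivi-1 libraries lay below the vehicle libraries without overlap, but the differences did not pass the test. Such separation was common, with 36.7% of all genes tested lower without overlap under Mdivi-1 and 21% higher. Prg3 averaged 2.56 ± 0.285 TPM under Mdivi-1 and 1.93 ± 0.0342 TPM under vehicle, a log2 difference of 0.28 (limma, 95% interval -0.11 to 0.68, adjusted p = 0.316).

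Ear2 averaged 23.1 ± 4.53 TPM under Mdivi-1 and 20.9 ± 1.94 TPM under vehicle in Ly6G+ cells, with overlapping libraries and a log2 difference of 0.13 (limma, 95% interval -0.25 to 0.52, adjusted p = 0.630). The sum of the 3 ribonuclease genes differed by 0.11 (limma, 95% interval -0.29 to 0.51, adjusted p = 0.711), and Ccr3 by -0.33 (limma, 95% interval -0.94 to 0.28, adjusted p = 0.445). The intervals reach down to -0.94 for Ccr3 and -0.73 for Epx, so changes of that size are not shown to be absent. In all, 5 of the 8 genes were tested and 0 were called by limma, and 0 had an unadjusted p under 0.05. Among all 11775 genes tested, 6.7% were called, 4.24% lower and 2.46% higher under Mdivi-1. Of all genes, 789 were called, against 279 and 212 without the first or the second Mdivi-1 library and 42 and 22 without the first or the second vehicle library, and 0 of the 8 genes were called in any of these fits.

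In HSCPs the values of all 8 genes were lower in the Mdivi-1 library than in the vehicle library, though Ear2 was nearly level and Il5ra was close to 0. A lower value was common, seen in 47.2% of the 18019 genes with a value above 0. With 1 library per arm there was no test and no replicate check. Epx in the Mdivi-1 library was at 0.526 of its level in the vehicle library, Prg2 at 0.557 and Prg3 at 0.659. On the log2(TPM + 1) scale these ratios were -0.90, -0.84 and -0.57. Among 9482 genes with a mean of at least 5 TPM in the 2 libraries, 0.928% had a ratio as low as or lower than that of Epx, 1.14% for Prg2 and 2.59% for Prg3. Ear2 was nearly level, at 15.4 TPM under Mdivi-1 and 15.9 TPM under vehicle, a log2 ratio of -0.04 that 33.9% of genes equalled or undercut.

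The 4 remaining genes had low values in HSCPs, with log2 ratios of -0.64 for Ear1, -0.75 for Ear6, -0.48 for Ccr3 and -0.28 for Il5ra. Il5ra, at 0.343 TPM in HSCP Mdivi-1 and 0.626 TPM in HSCP vehicle, was too close to 0 to give a direction. Ear6 was below 1 TPM in HSCP Mdivi-1. Among genes with a mean of at least 5 TPM, 42.7% had a lower value in the Mdivi-1 library. No member passed a log2 ratio of 1 in size, the limit used to count genes in this pair, where 4 of the 8 had a mean of at least 5 TPM. Of all genes at that mean, 0.791% passed it downwards and 0.559% upwards. The median log2 ratio of these genes was 0.03.

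**Figure D4:**
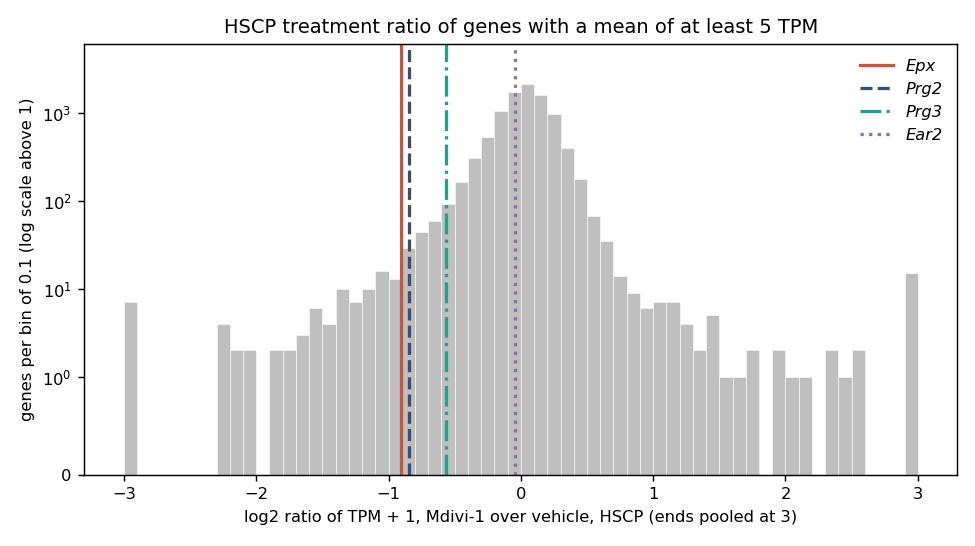
Number of genes (vertical axis, log scale above 1) by log2 ratio of TPM + 1 in the HSCP Mdivi-1 library over the HSCP vehicle library (horizontal axis, ends pooled at 3), for genes with a mean of at least 5 TPM. Lines mark Epx at -0.90, Prg2 at -0.84 and Prg3 at -0.57, in the lower tail, and Ear2 at -0.04, near the middle.

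The treatment change in Ly6G+ cells was also set against that in HSCPs in 1 fit, in which the lone HSCP libraries were assumed to vary like the Ly6G+ libraries. The difference of the changes was 0.71 for Prg2 (limma, SE 0.133, unadjusted p = 0.0035, adjusted p = 0.231), 0.85 for Prg3 (limma, SE 0.214, unadjusted p = 0.0113, adjusted p = 0.312) and 0.60 for Epx (limma, unadjusted p = 0.0649, adjusted p = 0.473). Of the 6 members tested, 0 passed after adjustment and 2 had an unadjusted p under 0.05. Over all 12338 genes the percentage called was 0, and 1398 genes had an unadjusted p under 0.05. A difference between the populations in the response of these genes to Mdivi-1 was therefore not detected.

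Other genes of eosinophil surface proteins and enzymes gave mixed results. Of 11 such genes, 9 were tested. Between populations, 5 were higher in Ly6G+ cells and 2 were lower, beside 22.2% higher and 50.3% lower among all genes tested. Siglecf, an inhibitory surface lectin that marks mouse eosinophils, had 4.89 and 4.46 TPM in Ly6G+ Mdivi-1, 3.62 and 3.88 TPM in Ly6G+ vehicle, 6.63 TPM in HSCP Mdivi-1 and 10.5 TPM in HSCP vehicle, and was lower in Ly6G+ cells by limma (log2 difference -0.85, adjusted p = 0.00768). Ltc4s, the leukotriene C4 synthase, was lower too, at 1.99 to 2.51 TPM in the Ly6G+ libraries, against 8.80 TPM in HSCP Mdivi-1 and 6.25 TPM in HSCP vehicle. The 5 higher genes were Ccr1, Itgam, Il13ra1, F5 and Adgre1, all of them also expressed by other myeloid cells. Under Mdivi-1 in Ly6G+ cells, 2 of the 9 rose and 0 fell, beside 2.46% and 4.24% of all genes tested. These 2 were the chemokine receptor gene Ccr1, with 178 and 176 TPM under Mdivi-1 against 75.1 and 73.1 TPM under vehicle (limma adjusted p = 0.00219), and the interleukin-13 receptor gene Il13ra1, with 53.3 and 56.3 TPM against 24.0 and 22.6 TPM (limma adjusted p = 0.00457).

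Of 12 transcription regulators of the eosinophil and neighbouring lineages, all were tested. Gata2, a factor of eosinophil, basophil and stem cell programs, had 3.88 and 3.17 TPM in Ly6G+ Mdivi-1, 11.9 and 13.4 TPM in Ly6G+ vehicle, 22.8 TPM in HSCP Mdivi-1 and 35.6 TPM in HSCP vehicle. It fell under Mdivi-1 in Ly6G+ cells (limma log2 difference -1.59, adjusted p = 0.00775) and was lower in Ly6G+ cells than in HSCPs (-1.91). Zfpm1, the GATA cofactor FOG-1, moved the same way, at -1.09 and -1.97 in these comparisons. Under Mdivi-1 in Ly6G+ cells, 4 of the 12 fell (Gata2, Zfpm1, Cebpe and Irf8) and 2 rose (Id2 and Trib1). Among all genes tested, 4.24% fell and 2.46% rose. Between populations, 5 were lower and 4 higher in Ly6G+ cells, beside 50.3% and 22.2% of all genes tested.

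Of 15 genes of interleukin-5, its relatives and their signalling chain, 12 were tested. Il3 was listed at 0 in every library, and Il5 was above 0 only in HSCP vehicle, at 0.0458 TPM. Csf2rb, the chain that interleukin-5, interleukin-3 and GM-CSF receptors share, had 141 to 150 TPM in Ly6G+ Mdivi-1, 120 and 123 TPM in Ly6G+ vehicle, 86.8 TPM in HSCP Mdivi-1 and 78.4 TPM in HSCP vehicle. On this per-length scale the shared chain was far more abundant than Il5ra in every library. Between populations, 7 of the 12 were higher in Ly6G+ cells and 3 lower, beside 22.2% and 50.3% of all genes tested. Under Mdivi-1 in Ly6G+ cells the tyrosine kinase gene Lyn alone passed, higher by 0.30 (limma adjusted p = 0.0424). That was 1 of 12, beside 6.7% of all genes tested that passed in either direction.

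Marker genes of other cell types that the sorts could hold were followed beside these results. The summed level of 5 neutrophil primary granule genes, which are made early in granulocyte development, was 1902 to 2042 TPM in the Ly6G+ libraries, against 15703 TPM in HSCP Mdivi-1 and 14542 TPM in HSCP vehicle. All 5 were lower in Ly6G+ cells by limma, as were 50.3% of all genes tested. Between populations this list moved in the same direction as Epx, Prg2 and Prg3. In the HSCP pair, without a test, all 5 had a higher value under Mdivi-1, where the eosinophil granule genes had a lower one. The log2 ratios of the 5 were small, from 0.06 for Mpo and 0.09 for Elane to 0.31 for Ms4a3. The median of all genes with a mean of at least 5 TPM was 0.03. A higher value was seen in 9518 of the 18019 genes above 0. The summed level of 11 basophil and mast cell markers was 383 and 396 TPM in Ly6G+ Mdivi-1, 676 and 690 TPM in Ly6G+ vehicle, 297 TPM in HSCP Mdivi-1 and 362 TPM in HSCP vehicle. In Ly6G+ cells 6 of the 7 tested fell under Mdivi-1, beside 4.24% of all genes tested. Among the 6 was the basophil protease gene Mcpt8, with 64.8 and 70.8 TPM under Mdivi-1 against 249 and 249 TPM under vehicle. Hdc, the 1 not called, had 216 and 219 TPM under Mdivi-1 against 181 and 188 TPM under vehicle. Of the same 7, 5 were higher in Ly6G+ cells than in HSCPs and 1 was lower, beside 22.2% and 50.3% of all genes tested. In the HSCP pair all 11 had a lower value under Mdivi-1, without a test, as did the 8 genes described here. The same held for 47.2% of all genes with a value above 0. Of the 11, Cma1 (0.297 TPM in HSCP Mdivi-1 and 0.355 TPM in HSCP vehicle), Tpsb2 (0.221 and 0.282), Il4 (0.597 and 0.964) and Il6 (0.146 and 0.280) were too low to give a direction. No gene of the basophil and mast cell list was at 0 in all libraries, and 2 were below 1 TPM throughout.

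The summed level of 12 monocyte and macrophage markers was 1817 and 1827 TPM in Ly6G+ Mdivi-1, 2081 and 2071 TPM in Ly6G+ vehicle, 1483 TPM in HSCP Mdivi-1 and 1536 TPM in HSCP vehicle, and 1 of the 12 was at 0 everywhere. Ly6c2, the largest part of the sum, had 944 and 933 TPM in Ly6G+ Mdivi-1 against 1269 and 1269 TPM in Ly6G+ vehicle. Under Mdivi-1 in Ly6G+ cells, 1 of the 11 tested genes rose and 2 fell by limma, beside 2.46% and 4.24% of all genes tested. Their median log2 change was 0.03, so the list as a whole did not fall with its sum. The sum of the 12 was higher in all Ly6G+ libraries than in HSCPs, as was Ear2. By limma 7 of the 11 tested genes were higher there and 2 lower, beside 22.2% and 50.3% of all genes tested. The summed level of 8 B cell markers was 21.1 and 20.8 TPM in Ly6G+ Mdivi-1, 115 and 116 TPM in Ly6G+ vehicle, 47.0 TPM in HSCP Mdivi-1 and 72.2 TPM in HSCP vehicle. Among neutrophil genes, all 6 late markers rose and 4 of 5 secondary granule genes fell under Mdivi-1 in Ly6G+ cells by limma. Of all genes tested there, 2.46% rose and 4.24% fell. The part of any of these cell types in the values of the 8 genes was not tested.

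**Figure D5:**
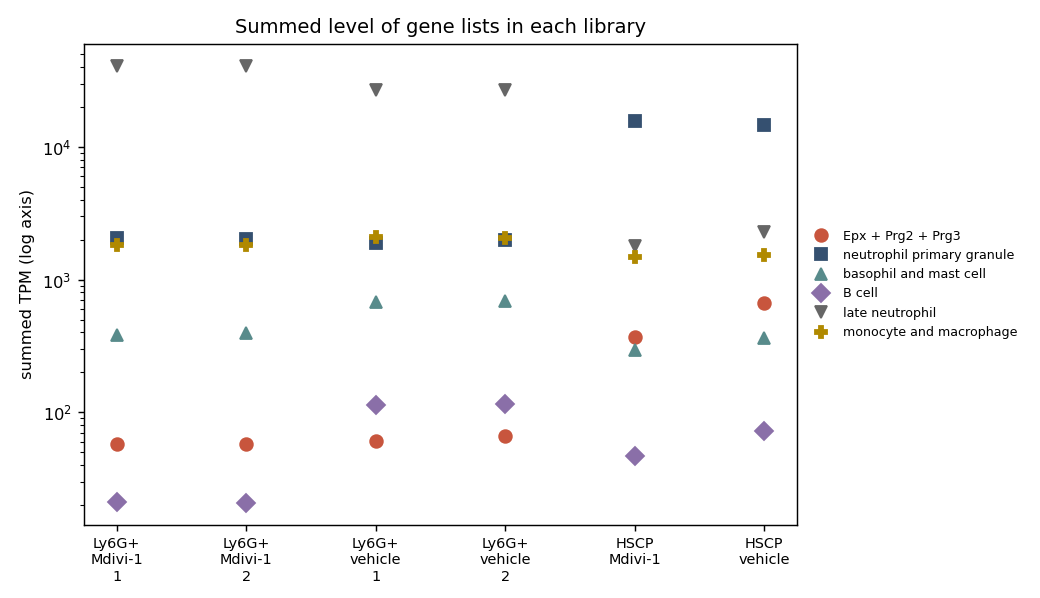
Summed TPM (vertical axis, log scale) of Epx, Prg2 and Prg3 and of the marker lists of other cell types, 1 point per list in each of the 6 libraries. The sum of Epx, Prg2 and Prg3 was 57.9 to 66.8 TPM in the Ly6G+ libraries, against 371 and 665 TPM in HSCP Mdivi-1 and HSCP vehicle.

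Genes whose levels across the 6 libraries were most like those of Epx, Prg2 and Ear2 were found among 9223 genes with a mean of at least 5 TPM, by the root mean square difference between centred log2(TPM + 1) profiles. Epx and Prg2 were each other's nearest gene, at a difference of 0.171. Next for Epx came Muc13, a transmembrane mucin gene, at 0.280, then the melanocortin receptor gene Mc5r at 0.302, the neutrophil elastase gene Elane at 0.331 and the myeloperoxidase gene Mpo at 0.341. For Prg2 the others were Muc13 at 0.224, Elane at 0.272, Mpo at 0.283 and Vat1 at 0.295. Mc5r had 0.885 and 0.609 TPM in Ly6G+ Mdivi-1, 2.20 and 1.55 TPM in Ly6G+ vehicle, 9.02 TPM in HSCP Mdivi-1 and 16.3 TPM in HSCP vehicle. In the HSCP pair Mc5r, Muc13 and Vat1 had a lower value under Mdivi-1, as Epx and Prg2 did, while Elane and Mpo had slightly higher ones. The HSCP pair was part of the profiles compared, so a shared direction partly followed from how these genes were found. A lower value was seen in 42.7% of all genes with a mean of at least 5 TPM in that pair. The genes nearest to Ear2 were Lrrc61 at 0.0434, Fchsd1 at 0.0697, Lrrc57 at 0.0735, Parpbp at 0.0793 and Sike1 at 0.0808, and no eosinophil gene was among them.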

How the data were processed

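The authors deposited 1 table of TPM for 28987 genes in 6 libraries. Each column sums to between 963243.1 and 979168.3, so its values were treated as TPM although a count test had been foreseen. Kallisto, bcl2fastq and CASAVA 1.8 were used with build mm10, per the submitters' processing notes; the kallisto version, annotation, strand setting and step to gene level are not stated there. TPM keeps no read totals, so depth is unknown, no counting interval is given, and a listed 0 may be a failed estimate. Symbols and positions come from GENCODE M21, which matched 27458 genes. The members and lists were chosen with earlier results of these data known.

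Values were tested as log2(TPM + 1) with limma 3.58.1 (R 4.3.3; trended, robust prior). Genes needed 1 TPM or more in 2 or more libraries of a comparison, with Benjamini-Hochberg adjustment over all of them at 0.05. The Ly6G+ fit left 2 residual degrees of freedom and the population fit 3. The ribonuclease sum replaced the rows of its 3 genes in the same fits. The scripts were tested on simulated data. Named were all 8 genes, the other family ribonucleases, up to 4 genes of each related list (first those past a test by size, then the most expressed), Kit and Ly6g, and the 5 genes nearest in pattern to Epx, Prg2 and Ear2. Members of small counts beyond this were named after their values were seen. Alternatives were another pseudocount, no filter, median-of-ratios and upper-quartile scaling, a replicate block, no treatment covariate, the sum over 7 family genes, and leaving out each library.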

Additional observations from a re-analysis of the deposited data

How the results depend on the processing

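For the ribonuclease sum and those of the 8 genes that met the level needed for testing, 180 of 188 recomputed tests kept their direction and their side of the threshold. Ear6 and Il5ra, which did not meet it, are not among these tests, and fits in which a gene failed the filter were not counted. The population tests of Ear1, whose call carries no weight, are among them. The fits share libraries, so these tests are not independent of one another. Among all genes, 789 were called for Mdivi-1 in Ly6G+ cells, against 218 with no filter and 22 to 279 with 1 library left out. The labels' replicate numbers do not say that libraries are paired, and deviations of same-numbered libraries had a correlation of -0.03 over 11775 genes; with the numbers as a replicate block, 325 genes were called. With 1 library left out, the Ly6G+ treatment difference ran from -0.089 to 0.31 for the ribonuclease sum and from -0.061 to 0.32 for Ear2, none past the threshold. Between populations, the ribonuclease sum ran from -0.084 to 0.28, and it was 0.44 with median-of-ratios scaling (limma adjusted p = 0.0427) and 0.40 with upper-quartile scaling (limma adjusted p = 0.0553). The number of members higher in Ly6G+ cells was 0 or 1, since Ear2 missed the threshold without HSCP Mdivi-1, and 3 to 4 were lower, since Ear1 failed the filter without either HSCP library. Without a filter 5 were lower. In the test of the difference of changes, 1 gene was called with 0.1 TPM added and 0 to 2 with 1 library left out, and the value ran from -0.017 to 0.37 for Ear2 and from -0.14 to 0.45 for Ccr3. Scaling moved the share of calls that were higher, which was 36.8% under Mdivi-1 in Ly6G+ cells, against 51.8% with median-of-ratios and 50.3% with upper-quartile scaling; between populations it was 30.6%, against 49.1% and 46.5%. In the HSCP pair, adding 0.1 TPM gave -1.25 for Ear6 and -0.71 for Il5ra. The unknown depth and the single HSCP library per arm limit what low genes and the HSCP treatment ratios can show. Except where fewer genes or libraries were fitted, the cause was not tested.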

Other observations

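Ligands of CCR3 and related chemokines had varied levels. Ccl5, which also binds other receptors, had 13.1 and 7.89 TPM in Ly6G+ Mdivi-1, 10.4 and 14.9 TPM in Ly6G+ vehicle, 6.97 TPM in HSCP Mdivi-1 and 8.86 TPM in HSCP vehicle, and did not pass the test between populations (limma log2 difference 0.47, adjusted p = 0.0906). Ccl11, the first eotaxin described, was at or below 0.141 TPM in every library and listed at 0 in the first Ly6G+ Mdivi-1, both Ly6G+ vehicle and the HSCP Mdivi-1 libraries. Ccl24, a second eotaxin, had 2.12 and 1.40 TPM in Ly6G+ Mdivi-1, 3.27 and 2.44 TPM in Ly6G+ vehicle, 3.02 TPM in HSCP Mdivi-1 and 5.32 TPM in HSCP vehicle. Ccl24 was lower in Ly6G+ cells than in HSCPs (limma log2 difference -0.64, adjusted p = 0.0137). Ccl8 had 0.413 to 0.731 TPM in the Ly6G+ libraries, against 2.64 and 4.05 TPM in HSCP Mdivi-1 and HSCP vehicle, and met the level needed for testing only through the HSCP libraries. All 5 chemokine genes had a lower value in HSCP Mdivi-1 than in HSCP vehicle, without a test, as did 47.2% of all genes with a value above 0. Of these 5, Ccl11 (0 and 0.141 TPM) and Ccl7 (0.219 and 0.420 TPM) were too close to 0 in these libraries to give a direction. Alox15, a lipoxygenase gene of eosinophils and macrophages, had 0.788 and 1.10 TPM in Ly6G+ Mdivi-1, against 3.33 and 2.30 TPM in Ly6G+ vehicle, and did not pass the test (limma log2 difference -0.96, adjusted p = 0.0676).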
